A study of Mus musculus with 6 samples.

Results

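Day 5 was set against day 3 in mouse embryonic fibroblasts during reprogramming, the conversion of differentiated cells toward pluripotency by delivered transcription factors. The comparison holds 4 of the 6 arrays of the series, taken as the 2 whose labels end in d5 and the 2 whose labels end in d3, and paired by factor combination. In one pair the cells received wild-type OCT4 with SOX2 and KLF4, called O(WT)SK. In the other they received SOX2 and KLF4 with an OCT4 version labelled 5R, whose meaning the labels do not give, called O(5R)SK. The other 2 arrays are from day 7 of the same combinations. All cells were of the B6CBAF1/J strain and all grew in medium for embryonic stem cells that contained fetal bovine serum and leukemia inhibitory factor, LIF. No array comes from cells without factors, so the values compare times within reprogramming and not reprogramming with its absence. The labels do not say whether the days or the combinations came from separate cultures, whether embryos were pooled or how the factors were delivered. Each combination and day is 1 array without a replicate. A p-value therefore reflects how far the combinations disagree in their course over days 3, 5 and 7. That disagreement may be technical or may come from the OCT4 version, and the 2 cannot be told apart.

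In the first week of reprogramming, fibroblasts that take up the factors are known to lose parts of their fibroblast program, such as contractile and matrix genes, before the pluripotency genes of the stem cell are switched on. Most cells of a culture do not reach pluripotency, so a bulk measurement at this time is dominated by cells that are still far from it. The values here are such bulk averages over all cells of a dish.

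Values are microarray intensities of 1 probe set per gene, compared as log2(intensity + 16), so that a difference of 1 is a 2-fold difference and the added 16 makes differences of dim genes look smaller than they were. Of 18193 genes on the array, 12622 were bright enough to be tested, with a mean above an intensity of 33.5. The arrays had been scaled to the same trimmed mean of 500, and their values correlated with Pearson's r between 0.970 and 0.991 across genes. The O(5R)SK day 3 array stood apart in 1 technical measure: the ratios of 3' to 5' signal of its dap and thr control transcripts were 3.09 and 3.78, while the remaining arrays gave ratios from 2.26 to 2.76 for dap and from 2.05 to 2.56 for thr. Its Gapdh ratio of 0.797 lay within the range of 0.768 to 0.803 of all 6 arrays. Differences within O(WT)SK do not use that array and are given beside each result. The genes read for the fibroblast label were bright on every array, with the exception of Pdgfra. Col1a1, a chain of type I collagen, read 5321 and 6346 on days 3 and 5 of O(WT)SK and 5254 and 6014 in O(5R)SK. Vim, the mesenchymal intermediate filament, read 40322, 43878, 39446 and 38125 in the same order. Pdgfra was dim at 81.7, 95.3, 90.7 and 93.8.

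The genes of the delivered factors were read as well, though their values do not check the labels of day or OCT4 version. Pou5f1, which encodes OCT4, read 2290 on day 3 and 2292 on day 5 of O(WT)SK, and 4087 and 4042 in O(5R)SK. Klf4 read 3008, 2861, 2897 and 3027 in the same order. Neither gene separated the days: the differences of Pou5f1 were 0.00 and -0.02 and those of Klf4 were -0.07 and 0.06, both within the residual spread of the fit. The probe set of Sox2 was dim, at 16.5, 31.7, 4.84 and 21.3, and was not tested, so delivery of SOX2 could not be seen in these values. Myc, a growth regulator that was not among the delivered factors, read 2100 and 1725 in O(WT)SK and 2337 and 2062 in O(5R)SK, lower on day 5 by 0.28 and 0.18 but not past the threshold (limma adjusted p = 0.384).

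Across all tested genes, limma with day and combination as terms called 0 of 12622 genes at an adjusted p of 0.05, which is 0% of them. The smallest adjusted p was 0.0712 and was shared by 36 genes, and 2041 genes had an unadjusted p under 0.05, where 631 would be expected without any difference. This fit has 2 residual degrees of freedom, with 2.60 added by the variance prior. When the prior was allowed to follow the mean intensity and to be robust, the same fit called 346 genes higher (2.74%) and 299 lower (2.37%) on day 5, and these calls are named below as those of the trended prior. Because the calls depend on the prior, genes are described by their values in each combination, and "higher" and "lower" below mean the direction of the values.

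By size, 45 genes (0.357% of those tested) were at least 2-fold higher on day 5 in both combinations, and 31 (0.246%) at least 2-fold lower. The trended prior called 41 of these 45 and 26 of these 31. Both day 5 values lay on the same side of both day 3 values in 44 of the 45 and in all 31. Such separation is therefore nearly fixed by a choice by size. It is given below for single genes, also for some under 2-fold, as a description only. Its share over all tested genes was not counted, so how common it is among them is not known. Genes dim on day 3 passed the brightness filter through later values and had to rise. Without the requirement of size, 4401 genes (34.9%) were higher in both combinations and 3939 (31.2%) were lower in both. The differences in O(WT)SK and O(5R)SK, which share no array, had the same sign for 8340 genes (66.1%) and correlated across genes with r = 0.396 and Spearman's rho = 0.415. Genes are not independent replicates, and the arrays of a day may share their handling. Only 8 genes passed 2-fold in opposite directions, 1 higher and 7 lower in O(WT)SK.

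**Figure D1:**
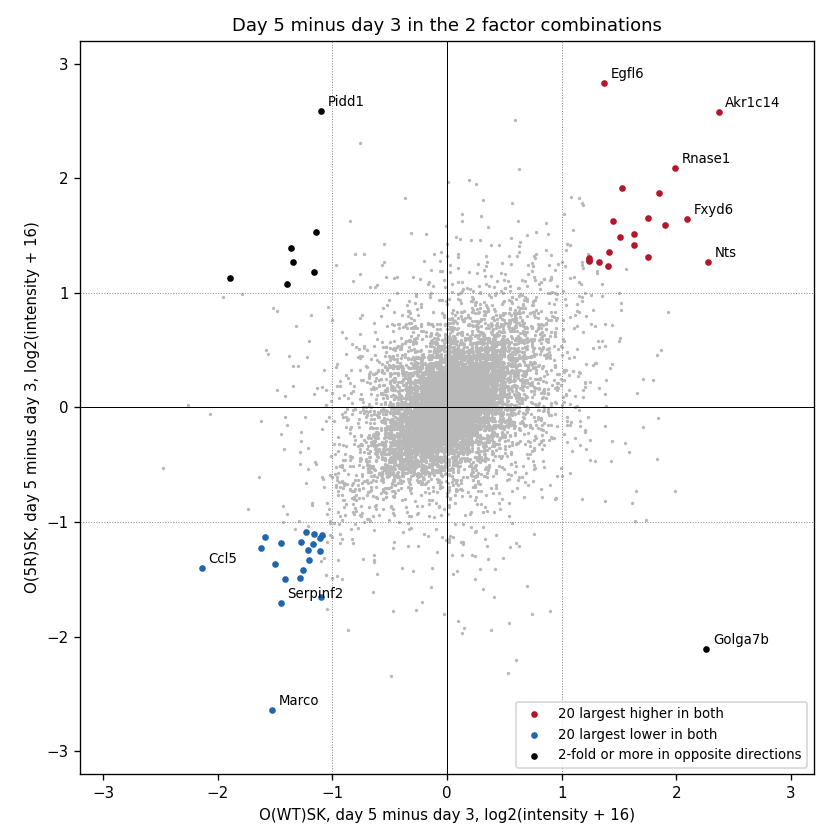
Day 5 minus day 3 of log2(intensity + 16) in O(WT)SK (horizontal axis) against O(5R)SK (vertical axis), 1 point for each of 12622 tested genes; dotted lines mark 2-fold. Red and blue points are the 20 largest differences shared in each direction, from Akr1c14 at the upper right to Marco at the lower left, and black points are the 8 genes that passed 2-fold in opposite directions.

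Genes of cell division were lower on day 5. Of 36 tested genes of DNA replication and the G1/S transition, 32 were lower in both combinations and 2 were higher, against 31.2% and 34.9% of all genes. The median difference was -0.36 in O(WT)SK and -0.35 in O(5R)SK, against 0.02 and 0.00 over all tested genes, and the trended prior called 9 of the 36 lower and 0 higher. Of 34 mitotic genes, 30 were lower in both combinations and 0 higher, with medians of -0.29 and -0.34, and the trended prior called 9 lower. No single member of either list passed the threshold of the main test.

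Ccne1 encodes cyclin E1, the cyclin that drives entry into S phase. It read 1172 on day 3 and 748 on day 5 of O(WT)SK, and 1067 and 698 in O(5R)SK. Both day 5 values lay below both day 3 values, and the mean difference was -0.62 ± 0.101 (limma SE, 2 pairs; adjusted p = 0.109). E2f2 and E2f8, transcription factors of the cell cycle, read 78.1 and 40.6, and 246 and 175, in O(WT)SK. In O(5R)SK they read 68.2 and 35.8, and 290 and 183, so that E2f2 was lower by 0.73 and 0.70 and E2f8 by 0.46 and 0.62. Pola2, a subunit of the primase-polymerase complex, was lower by 0.47 and 0.58 by its brightest probe set, whereas the mean of its probe sets was higher by 0.02, so its direction depends on the probe set. Among the mitotic genes, Ube2c, a ubiquitin-conjugating enzyme that works with the anaphase promoting complex, read 5493 and 4033 in O(WT)SK and 5008 and 3701 in O(5R)SK. Its differences of -0.44 and -0.43 were nearly equal, and the day 3 and day 5 values did not overlap (mean -0.44 ± 0.0943 limma SE, adjusted p = 0.158). Tpx2, a spindle assembly factor, differed by -0.44 and -0.61, Anln, the contractile ring protein anillin, by -0.43 and -0.66, and Kif23, a kinesin of the midbody, by -0.47 and -0.43. Mki67, which encodes the proliferation antigen Ki-67, read 2222 and 1761 in O(WT)SK and 2122 and 1740 in O(5R)SK, a difference of -0.33 and -0.28. Cdc45 and Tyms were the 2 replication genes that read higher in both combinations, by 0.13 and 0.20 and by 0.23 and 0.10, and neither was called by any of the fits above. From day 5 to day 7, a comparison that shares the day 5 arrays, the list medians were -0.07 for replication and -0.13 for mitosis.

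**Figure D2:**
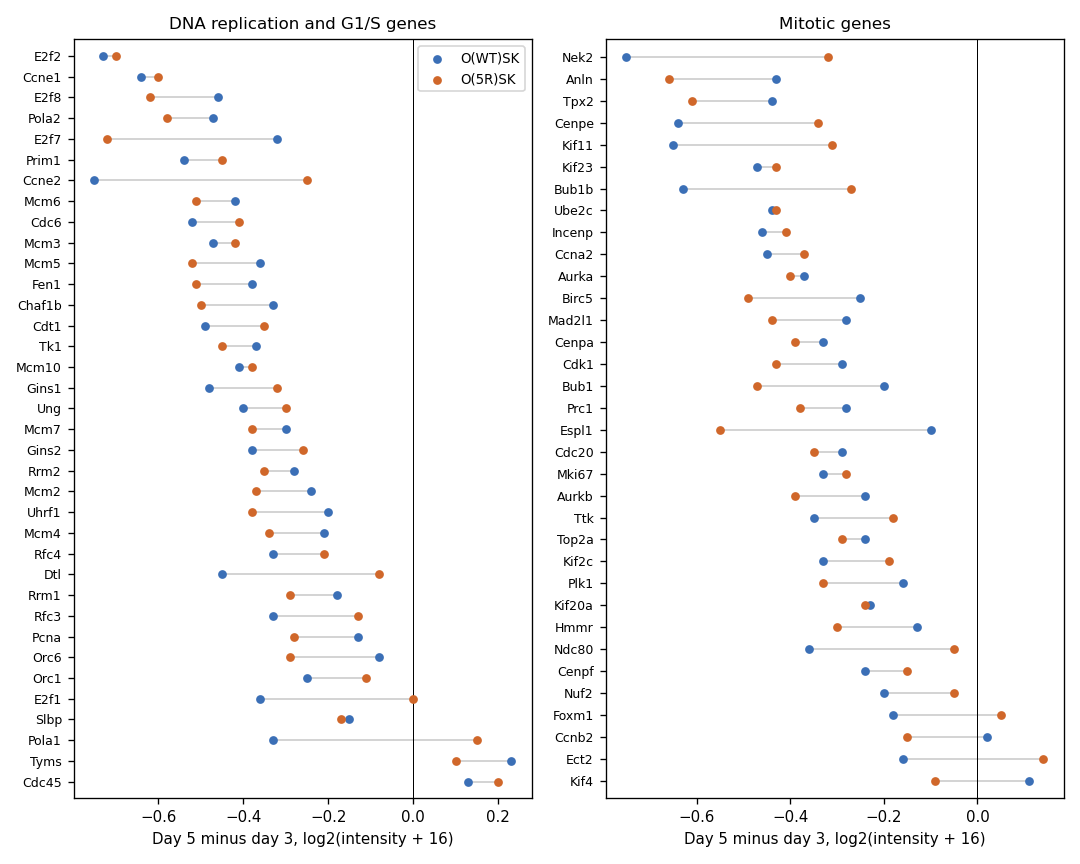
Day 5 minus day 3 of log2(intensity + 16) for the 36 tested replication and G1/S genes (left) and the 34 tested mitotic genes (right), with O(WT)SK in blue, O(5R)SK in orange and a grey line joining the 2 values of a gene. Nearly all points lie left of 0, with E2f2 and Ccne1 among the lowest replication genes and Tyms and Cdc45 on the right of 0 in both combinations.

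The promoters of the replication genes are shown because E2F factors, which release these genes at the G1/S transition, are known to bind a short element there. Promoters were taken as 250 bases before to 50 after the annotated start, from RefSeq (GRCm38.p6). The letters TTTCCCGC or TTTGGCGC on either strand were found in 11 of 36 promoters (30.6%) of the 32 replication genes that matched the promoter table, in 0 of 30 promoters of the mitotic genes, and in 1.56% of 32851 promoters overall. A match is a description of the letters and not a bound site, and this search was chosen after the values were seen. The promoters of Mcm6 (chr1:128359656-128359955, minus strand) and Mcm5 (chr8:75109259-75109558, plus strand), which encode subunits of the replicative helicase, are printed 5' to 3' with matches in capitals. Mcm5 holds the letters of TTTGGCGC on the other strand. The promoter of Ccne1, the cyclin E1 gene described above, held 0 matches and is not printed.
Mcm6: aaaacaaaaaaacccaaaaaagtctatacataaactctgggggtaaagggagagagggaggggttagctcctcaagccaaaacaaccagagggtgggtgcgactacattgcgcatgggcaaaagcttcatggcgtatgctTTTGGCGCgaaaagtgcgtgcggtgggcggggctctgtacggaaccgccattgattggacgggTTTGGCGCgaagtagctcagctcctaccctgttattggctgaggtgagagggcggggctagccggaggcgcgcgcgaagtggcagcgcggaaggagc
Mcm5: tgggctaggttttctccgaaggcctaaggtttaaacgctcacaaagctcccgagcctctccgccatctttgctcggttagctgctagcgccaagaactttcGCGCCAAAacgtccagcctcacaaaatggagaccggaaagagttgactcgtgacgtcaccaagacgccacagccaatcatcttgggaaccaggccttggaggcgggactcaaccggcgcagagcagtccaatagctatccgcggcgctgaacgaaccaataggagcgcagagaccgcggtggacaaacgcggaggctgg
The matches of Mcm6 begin 110 and 47 bases before the start and that of Mcm5 149 bases before it. Mcm6 read 2846 and 2128 in O(WT)SK and 3218 and 2247 in O(5R)SK, lower by 0.42 and 0.51. Mcm5 read 1723 and 1334, and 1933 and 1341, lower by 0.36 and 0.52. In both genes the day 5 values lay below both day 3 values, and neither passed the threshold (limma adjusted p = 0.152 and 0.170).

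Of 24 tested inhibitors of cyclin-dependent kinases and targets of p53, 11 were higher and 8 lower in both combinations, and the trended prior called 4 higher and 1 lower. Cdkn2a, which encodes the p16 and ARF proteins that halt the cell cycle, read 1123 on day 3 and 1921 on day 5 of O(WT)SK, and 881 and 1921 in O(5R)SK. Its neighbour Cdkn2b, which encodes p15, read 3369 and 6140, and 3638 and 5833. Both genes were separated between the days, by 0.77 and 1.11 for Cdkn2a and by 0.86 and 0.68 for Cdkn2b (limma adjusted p = 0.0987 and 0.0936). Cdkn1a, which encodes p21 and is the best known p53 target, read 13012, 13210, 12652 and 12749 and differed by 0.02 and 0.01. Of 24 genes of ribosome biogenesis and other MYC targets, 18 were lower in both combinations and 2 higher, with medians of -0.15 in each combination. Nop56, a nucleolar protein of small RNA particles, differed by -0.32 and -0.37. Genes of ribosomal proteins themselves did not share a direction, with 1 of 24 higher and 4 lower in both combinations.

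Contractile genes were lower as well. These genes encode actins, myosins, their regulators and the adhesion proteins that anchor them, and many are driven by serum response factor, SRF. Of 28 tested members, 25 were lower in both combinations and 0 higher, with medians of -0.28 and -0.24, and the trended prior called 7 lower. Lmod1, leiomodin, which nucleates actin filaments, read 1378 and 630 in O(WT)SK and 1235 and 511 in O(5R)SK. Both day 5 values were under both day 3 values, and it was the 1 member past 2-fold in both, by 1.11 and 1.25 (mean -1.18 ± 0.122 limma SE, adjusted p = 0.0745). Mylk, the kinase that activates myosin light chain, read 3217 and 1796, and 2940 and 1692, lower by 0.83 and 0.79. Synpo2, an actin-bundling protein, was lower by 0.84 and 1.06 and Ldb3, a Z-disc protein, by 0.86 and 0.58. The list did not move as a block. Acta2, smooth muscle actin, read 37572, 37268, 38225 and 34956, and Tagln, which binds actin, read 26949, 27019, 27584 and 24736, so that their differences of -0.01 and -0.13, and 0.00 and -0.16, lay within the spread of the fit. Myh9, non-muscle myosin, differed by 0.13 and 0.00. From day 5 to day 7 the median of the list was -0.29, with shared day 5 arrays.

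Acta1, the actin of skeletal muscle, read 10678 and 6415 in O(WT)SK and 10822 and 6242 in O(5R)SK. It was lower by 0.73 and 0.79 with no overlap between the days (limma adjusted p = 0.107). Of 8 tested skeletal muscle markers, Acta1 among them, 3 were lower and 3 higher in both combinations. Their part in the contractile result was not tested.

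Genes of the immediate early response, which cells switch on within minutes of serum or stress, were mostly lower too. Of 26 tested members, 18 were lower in both combinations and 3 higher, with medians of -0.29 and -0.19, and the trended prior called 6 lower. Egr1, a zinc finger factor, read 3767 and 1804 in O(WT)SK and 4891 and 1770 in O(5R)SK. Fos, a subunit of AP-1, read 2242 and 1210, and 2673 and 1481. For both genes the days did not overlap, with differences of -1.06 and -1.46 for Egr1 and of -0.88 and -0.84 for Fos (limma adjusted p = 0.109 and 0.107). Jun, the partner of Fos, differed by only -0.23 and -0.16. Egr1 did not stay low: on day 7 it read 4326 in O(WT)SK and 3279 in O(5R)SK.

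SRF itself, encoded by Srf, read 1435 and 907 in O(WT)SK and 1262 and 882 in O(5R)SK, lower by 0.65 and 0.51 (limma adjusted p = 0.155). SRF is known to bind the CArG box, and its own promoter carries such boxes, so promoters are shown with these letters in capitals. The CArG box was found on either strand in 6 of 27 promoters (22.2%) of the 24 contractile genes that matched the table, those of Cnn2, Ldb3, Myl9, Srf and Vcl, and in 1.63% of 32851 promoters. In the immediate early list it was also in 6 of 27 promoters (22.2%), from the 3 genes Dusp5, Egr2 and Zfp36 among 21 matched. Both lists were drawn up partly from known SRF targets, so this share describes the choice of genes too. The box and other motifs were also searched in promoters of the genes with the largest shared differences. The box was in 0 of 19 promoters of those higher on day 5. It was in 1 of 14 promoters of those lower on day 5, that of Mpeg1. Among the latter the AP-1 letters TGANTCA had the largest share, 4 of 14, against 1 of 19 and 7.81% of all promoters. The promoters of Srf (chr17:46556113-46556412, minus strand) and Acta1 (chr8:123894726-123895025, minus strand) read as follows.
Srf: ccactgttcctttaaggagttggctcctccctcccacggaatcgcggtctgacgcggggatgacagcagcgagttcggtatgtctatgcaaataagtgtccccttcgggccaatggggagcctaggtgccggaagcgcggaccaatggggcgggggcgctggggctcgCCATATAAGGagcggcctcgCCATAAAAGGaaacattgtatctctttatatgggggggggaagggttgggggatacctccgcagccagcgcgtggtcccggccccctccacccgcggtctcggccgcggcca
Acta1: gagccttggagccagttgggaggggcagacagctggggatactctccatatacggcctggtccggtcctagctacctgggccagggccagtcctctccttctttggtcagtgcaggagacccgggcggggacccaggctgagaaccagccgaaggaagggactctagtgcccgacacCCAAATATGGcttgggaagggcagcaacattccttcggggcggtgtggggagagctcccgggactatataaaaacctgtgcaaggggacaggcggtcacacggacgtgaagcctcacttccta
The boxes of Srf begin 82 and 62 bases before the start, and the box of Acta1 begins 73 bases before it. Of the 5 contractile genes with a box, Ldb3 and Srf had the larger differences, whereas Cnn2, calponin 2, was lower by 0.23 and 0.33.

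Of 16 targets of YAP and TEAD, which respond to stretch and cell density, 9 were lower and 3 higher in both combinations. Ankrd1, a stretch-induced nuclear protein, read 12615 and 7175 in O(WT)SK and 12989 and 7483 in O(5R)SK, lower by 0.81 and 0.79 (limma adjusted p = 0.0891). Crim1 and Edn1 were lower by 0.58 and 0.41, and by 0.47 and 0.37. In the opposite direction, Nt5e, an ectoenzyme that makes adenosine, read 99.3 and 181, and 106 and 335, higher by 0.78 and 1.53.

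Genes of macrophages and other leukocytes, which are not fibroblast genes, were the list with the lowest medians. Of 30 tested markers out of 32 listed, 26 were lower on day 5 in both combinations and 3 higher. The medians were -0.57 and -0.80, 4 markers were at least 2-fold lower in both, and the trended prior called 14 lower and 0 higher. The summed intensity of the 31 markers on the array went from 27273 on day 3 to 15935 on day 5 in O(WT)SK, a ratio of 0.584, and from 26310 to 14046 in O(5R)SK, a ratio of 0.534. On day 7 the sums were 11581 and 9925. Most of each day 3 and day 5 sum came from the lysozyme genes Lyz1 and Lyz2. In O(WT)SK they read 10309 and 6294 on day 3 and 5933 and 3301 on day 5. The ratios of the sums therefore describe mainly these genes, whereas the medians weigh each marker equally. None of the markers was at 0 on any array, the lowest value being 2.15. In bulk samples such as these, fewer cells of a type and less RNA per cell cannot be told apart.

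Clec4d, a C-type lectin receptor of myeloid cells, read 580 and 207 in O(WT)SK and 484 and 160 in O(5R)SK. Mpeg1, which encodes the pore-forming perforin-2 of macrophages, read 678 and 305, and 709 and 313. In both genes each day 5 value lay under both day 3 values, with mean differences of -1.46 ± 0.120 and -1.13 ± 0.0998 (limma SE, adjusted p = 0.0712 for both). Marco, a scavenger receptor, read 164 and 46.4 in O(WT)SK and 103 and 3.04 in O(5R)SK, and its difference of -2.64 in the latter rests on a value below the added 16. Lyz2, lysozyme, read 6294 and 3301, and 5824 and 3008, lower by 0.93 and 0.95. Csf1r, the receptor that macrophages need for survival, read 819 and 562, and 845 and 495, lower by 0.53 and 0.75, and Adgre1, the F4/80 antigen, was lower by 0.62 and 0.89. Ptprc, the CD45 antigen of all leukocytes, was lower by 0.96 and 0.61. Laptm5, a lysosomal protein, was an exception at 332 and 429, and 548 and 687, higher by 0.35 and 0.32. With the mean of probe sets in place of the brightest, 0 of the 30 markers were higher in both combinations and 25 were lower. Such exceptions therefore depend on the probe set.

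Several of the genes with the largest shared differences toward day 3 are known from leukocytes too, whether or not they were in the list. Cybb, the catalytic subunit of the phagocyte oxidase, read 320 and 107 in O(WT)SK and 253 and 102 in O(5R)SK. Ccl5, a chemokine, read 229 and 39.4, and 131 and 39.8, and Ccl9, another chemokine, 268 and 117, and 226 and 60.8. In all 3 the days were separated, with differences of -1.45 and -1.18 for Cybb, -2.14 and -1.40 for Ccl5, and -1.10 and -1.65 for Ccl9. Siglecg, a lectin of lymphocytes, read 4290 and 1844, and 4040 and 1967. Mmp9, a gelatinase, was lower by 1.16 and 1.10, and Cd36, a fatty acid receptor, by 1.26 and 1.42. These differences had the same direction as most macrophage markers given above, and how far the leukocyte share of the dish accounts for them was not tested. They were picked among genes lower on day 5. Srgn and Irak3, which are known from leukocytes as well, were higher, by 1.63 and 1.42 and by 1.33 and 1.27. Csf1, the growth factor of macrophages that fibroblasts make, read 8615 and 5251, and 8772 and 5639, lower by 0.71 and 0.64 (limma adjusted p = 0.122).

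**Figure D3:**
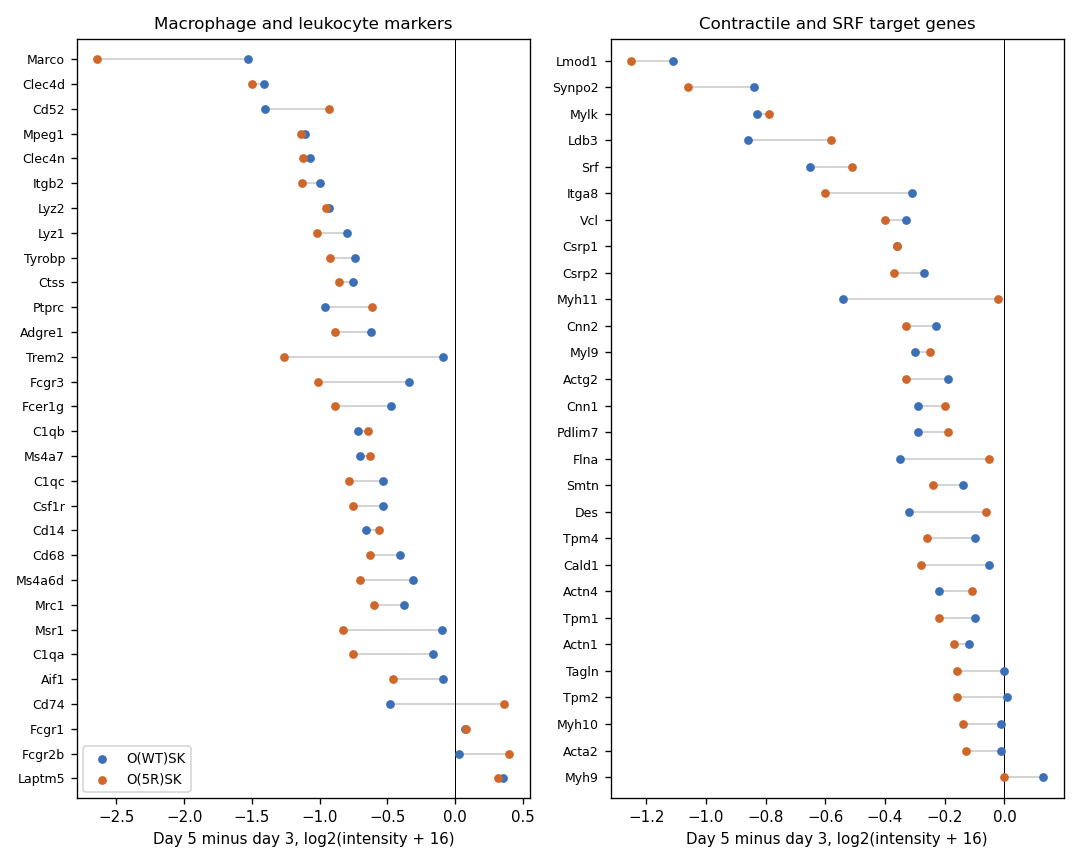
Day 5 minus day 3 of log2(intensity + 16) for the 30 tested macrophage and leukocyte markers (left) and the 28 tested contractile and SRF target genes (right), with O(WT)SK in blue, O(5R)SK in orange and a grey line joining the 2 values of a gene. Only Laptm5, Fcgr2b and Fcgr1 lie right of 0 in both combinations on the left, and none does on the right.

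The chemokines and cytokines as a whole went both ways. Of 22 tested, 9 were lower and 6 higher in both combinations, and the trended prior called 4 lower and 3 higher. Ccl2, a monocyte chemoattractant that fibroblasts also make, read 2131 and 3782 in O(WT)SK and 1595 and 2581 in O(5R)SK, higher by 0.82 and 0.69. Il6, an inflammatory cytokine, read 392 and 1047, and 592 and 865, higher by 1.38 and 0.54, and Ccl20 was higher by 0.76 and 1.32. Of 26 interferon response genes 10 were lower and 6 higher in both. Ifi27l2b, an interferon-induced membrane protein, read 564 and 177, and 455 and 199, the lowest member by the smaller of its differences (-1.59 and -1.13).

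In the TGF-beta pathway, which sustains contractile and matrix genes in fibroblasts, 1 ligand stood out. Tgfb3 read 7364 on day 3 and 2602 on day 5 of O(WT)SK, and 7764 and 3001 in O(5R)SK. Both day 5 values lay far below both day 3 values, and the mean difference was -1.43 ± 0.119, or 2.70-fold (limma SE, adjusted p = 0.0712). On day 7 it read 1971 and 1827. The other ligands did not move with it: Tgfb1 differed by -0.04 and -0.04 and Tgfb2 by -0.25 and 0.00. Ltbp1, which holds latent TGF-beta in the matrix, and its relative Ltbp2 were lower by 0.67 and 0.53, and by 0.74 and 0.33. The coreceptor Eng was higher by 0.44 and 0.43. Tgfbi, a matrix protein induced by the pathway, was lower by 0.66 and 0.72, whereas the pathway's feedback inhibitor Smad7 differed by 0.01 and -0.11. Over the 22 tested members 9 were lower and 8 higher in both combinations, so the list as a whole had no common direction.

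The BMP pathway was likewise split, with 7 of 19 higher and 7 lower. Grem1, a secreted BMP antagonist, read 1090 and 1837 in O(WT)SK and 1469 and 2161 in O(5R)SK, higher by 0.74 and 0.55, and the ligand Bmp2 was lower by 0.58 and 0.75. In the Wnt pathway, 13 of 26 were higher and 7 lower in both combinations, and the larger differences were in secreted antagonists. Dkk2 read 899 and 1713, and 778 and 1578, higher by 0.92 and 1.01, and the days did not overlap (limma adjusted p = 0.0835). Sfrp2 read 23.6 and 96.1, and 41.2 and 98.0, a mean difference of 1.25, and Sfrp4 was higher by 0.70 and 0.95. The antagonist Dkk1 was lower by 0.35 and 0.57. Axin2, a common target of the pathway, read 64.5 and 139, and 87.2 and 148, higher by 0.94 and 0.66.

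Matrix genes went both ways. Of 28 fibrillar collagens and their processing enzymes, 12 were lower and 5 higher, with medians of -0.05 and -0.07. Of 29 other matrix genes, 12 were higher and 10 lower, and the trended prior called 6 higher and 3 lower. Prelp, a leucine-rich proteoglycan, read 3930 and 9003 in O(WT)SK and 3040 and 7093 in O(5R)SK. It was higher by 1.19 and 1.22 with no overlap of the days (mean 1.21 ± 0.0971 limma SE, adjusted p = 0.0712). Fmod, fibromodulin, of the same family, was higher by 1.20 and 1.00. Postn, periostin, read 8064 and 4586, and 7100 and 4262, lower by 0.81 and 0.73, and Fbln1, fibulin 1, was lower by 0.91 and 0.81. Lum, lumican, another leucine-rich proteoglycan, was lower by 0.56 and 0.80, so relatives within that family went opposite ways. Of 24 matrix proteases and their inhibitors 14 were lower and 8 higher, with Adam8, a metalloprotease of myeloid cells, at 210 and 117, and 198 and 95.5.

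Genes of the mesenchymal state did not go down as a group. Of 22 tested, 10 were higher and 7 lower in both combinations. Zeb1, a repressor of epithelial genes, read 1689 and 2167 in O(WT)SK and 1456 and 1903 in O(5R)SK, higher by 0.36 and 0.38, and Prrx1, a mesenchymal homeobox factor, by 0.29 and 0.26. Osr1, a zinc finger factor of mesoderm, was lower by 0.52 and 0.70. Thy1, a surface antigen of fibroblasts that is lost early in reprogramming, read 9185 and 6735, and 9385 and 6967, lower by 0.45 and 0.43 but still bright (limma adjusted p = 0.160). Of 9 tested stage markers of reprogramming, Thy1 among them, 4 were higher and 2 lower in both combinations.

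Epithelial junction genes were mostly dim and partly higher. Of 25 on the array 15 could be tested, of which 8 were higher and 3 lower in both combinations, with medians of 0.31 and 0.32, and the trended prior called 4 higher and 1 lower. Genes that passed the brightness filter through high day 5 or day 7 values had to differ, so these counts describe and do not support a direction. Cdh1, which encodes E-cadherin, read 102 and 170 in O(WT)SK and 133 and 256 in O(5R)SK, higher by 0.65 and 0.87 (limma adjusted p = 0.281). Dsp, desmoplakin, read 784 and 1241, and 743 and 1272, higher by 0.65 and 0.76. Pkp2, another desmosomal protein, went the other way at 2771 and 1595, and 2625 and 1399, lower by 0.79 and 0.90. In the 10 tested epithelial regulators the medians had opposite signs, at -0.15 and 0.27. Keratins and cornified envelope genes were divided too, with 8 of 14 higher and 3 lower: Ivl, involucrin, was higher by 0.77 and 0.79, whereas Sprr2k was lower by 0.81 and 0.80.

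Genes of the pluripotent state were near the floor of the array. Of 32 on the array only 15 could be tested, and Nanog, at 4.06 and 8.08 in O(WT)SK and 5.00 and 7.13 in O(5R)SK, was among those too dim. Of the 15 tested, 8 were higher and 5 lower in both combinations. Fbxo15 and Tfcp2l1 passed the brightness filter through day 7 values, which were 349 and 276 in O(5R)SK. These counts therefore describe and do not support a direction. Without the filter 14 of 32 were higher and 8 lower, with medians of 0.27 in O(WT)SK and -0.01 in O(5R)SK. Jam2, a junctional adhesion molecule expressed in stem cells and in endothelium, read 912 and 2090, and 1049 and 2504. It was higher by 1.18 and 1.24 without overlap (mean 1.21 ± 0.0983 limma SE, adjusted p = 0.0712). Fgf4, the growth factor of the early embryo, read 106 and 192, and 93.3 and 254, and Fbxo15, an early marker of reprogramming, read 3.96 and 28.3, and 37.4 and 88.4. Klf2 and Klf5, factors of the naive network that fibroblasts also express, were lower, by 0.56 and 0.62 and by 0.85 and 0.46. Esrrb was higher by 0.77 and 0.35.

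**Figure D4:**
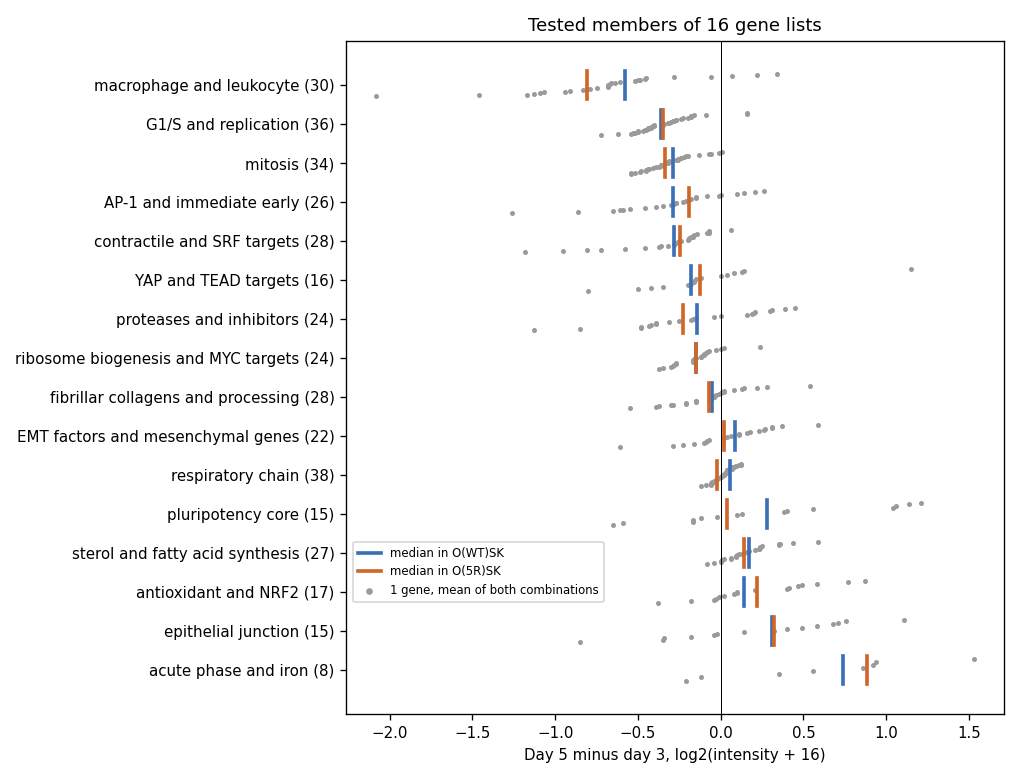
Day 5 minus day 3 of log2(intensity + 16) for the tested members of 16 gene lists, with the number tested in brackets; grey points are single genes as the mean of both combinations, and blue and orange bars are the medians in O(WT)SK and O(5R)SK. Macrophage, cell cycle, immediate early and contractile lists have both medians left of 0, and the sterol, antioxidant, epithelial junction and acute phase lists have both right of 0.

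The genes with the largest shared differences toward day 5 belonged to several families. Akr1c14, an aldo-keto reductase of steroid metabolism, read 766 on day 3 and 4034 on day 5 of O(WT)SK, and 732 and 4450 in O(5R)SK. Both day 5 values were far above both day 3 values, and the mean difference was 2.48 ± 0.175, or 5.56-fold (limma SE, adjusted p = 0.0712). On day 7 it read 6053 and 8926. Rnase1, a secreted ribonuclease, read 20.5 and 129, and 31.1 and 185, with a mean of 2.04 ± 0.0985 (adjusted p = 0.0712). Its day 3 values were close to the added 16, so this size understates the ratio of the intensities.

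Serpins of the B clade, which inhibit proteases inside cells, were repeated among the 45 genes. Serpinb1a, an inhibitor of neutrophil proteases, read 117 and 433 in O(WT)SK and 88.5 and 311 in O(5R)SK. Serpinb6c read 26.5 and 142, and 24.4 and 105, and Serpinb6b read 376 and 807, and 308 and 694. All 3 had separated days, with differences of 1.75 and 1.65, 1.90 and 1.59, and 1.07 and 1.13. These genes have close relatives in the mouse genome, so which of the relatives a probe set measured is uncertain.

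Surface and secreted proteins made up much of the rest. Srgn, the core protein of the proteoglycan serglycin, read 1348 and 4218 in O(WT)SK and 1287 and 3473 in O(5R)SK. Cd34, a surface sialomucin of progenitor cells, vessels and fibroblasts, read 410 and 1146, and 339 and 1087. Both were higher in each combination, by 1.63 and 1.42 and by 1.45 and 1.63 (limma adjusted p = 0.0712 for both). Ecrg4, a secreted peptide precursor, was higher by 1.51 and 1.49, and its 3 probe sets agreed in direction. Msln, a surface glycoprotein of mesothelium, read 2906 and 6459, and 3159 and 6744, and Upk1b, an uroplakin, read 1017 and 2302, and 824 and 1764. Egfl6, a secreted EGF-like protein, differed more between the combinations, with 1.37 against 2.83, and Nts, neurotensin, with 2.28 against 1.27.

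Among intracellular proteins, Ahr, the aryl hydrocarbon receptor, read 289 and 796 in O(WT)SK and 416 and 1096 in O(5R)SK, higher by 1.41 and 1.36. Sptssb, a small subunit of serine palmitoyltransferase, was higher by 1.63 and 1.51, Irak3, an inhibitor of Toll-like receptor signalling, by 1.33 and 1.27, and Fabp7, a fatty acid binding protein of glia, by 1.24 and 1.28. Fabp7 read 847 and 2023, and 991 and 2431, without overlap. Of 13 tested neural markers, Fabp7 among them, 5 were higher and 2 lower in both combinations, and Stmn2, a neuronal microtubule protein, was higher by 0.45 and 0.34. The summed intensity of the 17 neural markers on the array had a day 5 to day 3 ratio of 1.23 in O(WT)SK and 1.19 in O(5R)SK, and its part in the result for Fabp7 was not tested. Fxyd6, a regulator of the sodium pump, was higher by 2.09 and 1.64, and Rab3b, a GTPase of secretory vesicles, by 1.53 and 1.91. Tbx5, a factor of the forelimb and heart, read 40.2 and 150, and 76.3 and 198, higher by 1.56 and 1.21, and was lower again on day 7 at 84.2 and 125. In the positional list that holds it, 13 of 29 Hox and related genes were higher and 3 lower in both combinations. The remaining genes of the 20 largest were Bcl2l14 (1.85 and 1.87), Scara5 (1.75 and 1.31), Defb1 (1.24 and 1.30), Cacna2d2 (1.24 and 1.29) and Scube3 (1.40 and 1.23). Bcl2l14 read 11.7 and 83.9 on days 3 and 5 of O(WT)SK, and 13.1 and 90.5 in O(5R)SK (limma adjusted p = 0.180). On day 7 it read 11.8 and 76.2, and this disagreement enters the p-value as well. Scube3 read 23.1 and 18.8 on day 3, and Rab3b 27.3 and 15.4. Bcl2l14, Scube3 and Rab3b were thus dim on day 3 and passed the brightness filter through later values. The same holds for Rnase1 and Serpinb6c, given above. Of the 20, 9 had several probe sets, and in 3 of these, Bcl2l14, Scara5 and Cacna2d2, another, dimmer probe set did not share the direction in both combinations.

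Of the 20 largest differences toward day 3 outside the leukocyte and contractile genes, Lims2, an adaptor of integrin adhesions, read 1772 and 566 in O(WT)SK and 1511 and 637 in O(5R)SK. Crispld2, a secreted protein, read 1971 and 851, and 2197 and 866, and Abca5, a lipid transporter, read 1787 and 764, and 1782 and 746. All 3 had separated days, with mean differences of -1.42 ± 0.132, -1.26 ± 0.103 and -1.22 ± 0.0946 (limma SE, adjusted p = 0.0712 for each). Tfpi2, a protease inhibitor of the matrix, was lower by 1.17 and 1.19, and Pmch, which encodes melanin-concentrating hormone, by 1.23 and 1.09. Sema3f, a guidance factor, read 145 and 50.5, and 202 and 61.8, and was back at 134 and 198 on day 7. Serpinf2, the plasmin inhibitor, followed the same course at 45.6, 6.51 and 58.4 in O(WT)SK on days 3, 5 and 7, and read 69.1 and 10.1 on days 3 and 5 of O(5R)SK. Cyp4a12a, a fatty acid hydroxylase, was lower by 1.27 and 1.17 at low intensities, from 93.3 to 29.5 and from 97.3 to 34.3. Sox10, a neural crest factor, was lower by 1.09 and 1.11, but it was dim and another of its probe sets read higher by 0.38 and 1.49. In Sema3f and Cd36 a dimmer probe set also did not share the direction in both combinations.

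**Figure D5:**
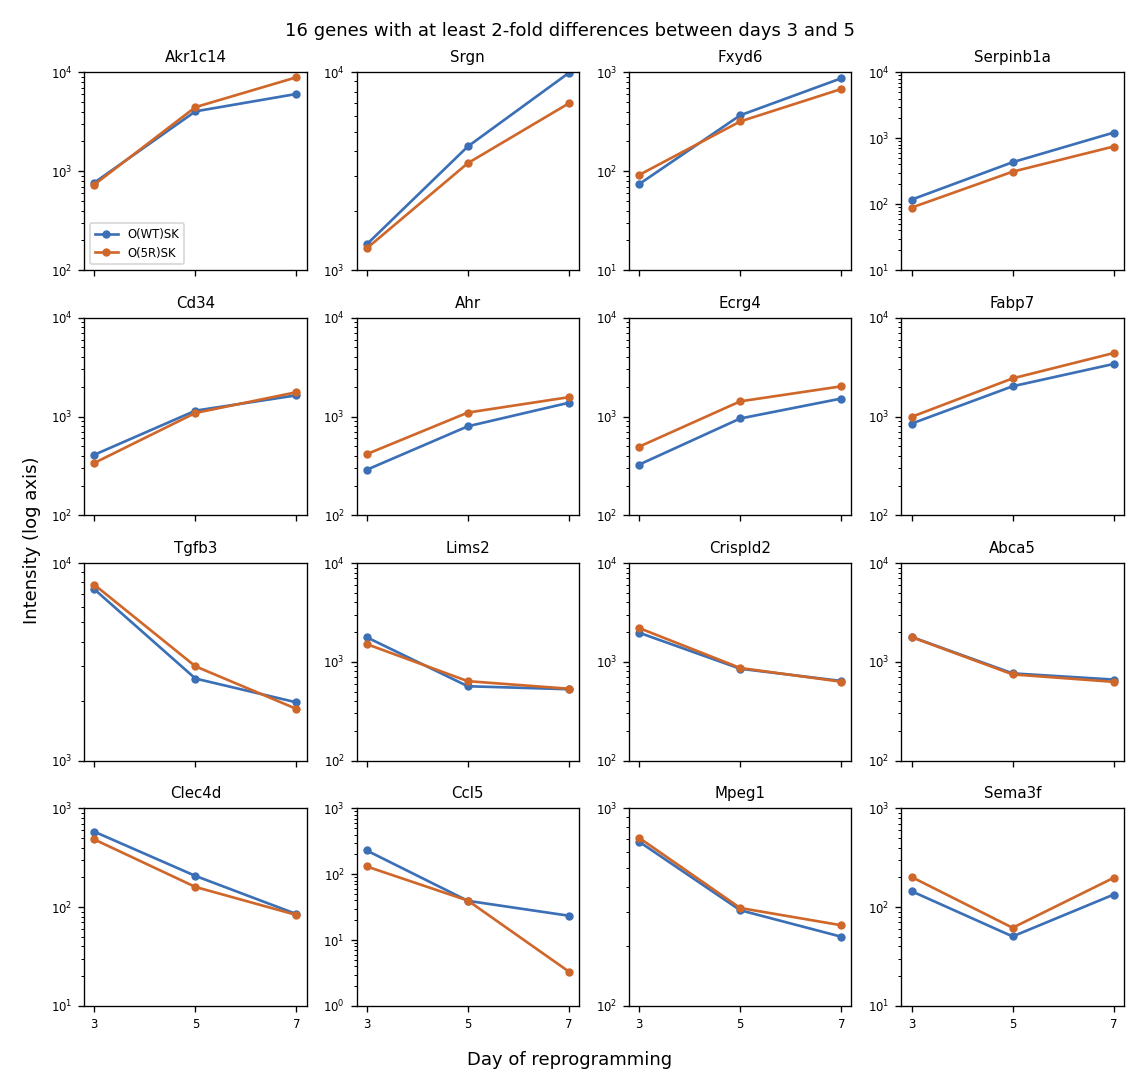
Intensity on a log axis against the day of reprogramming (3, 5 and 7) for 16 genes at least 2-fold different between days 3 and 5, with O(WT)SK in blue and O(5R)SK in orange, 1 array per point. The upper 8 genes are higher on day 5 than on day 3 in both combinations and the lower 8 are lower, and Sema3f returns on day 7 to 134 and 198.

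Metabolic and stress genes gave differences of several sizes. Of 27 genes of sterol and fatty acid synthesis, 20 were higher in both combinations and 1 lower, with medians of 0.17 and 0.14. When the arrays were shifted to a common median instead, 14 were higher and 3 lower. Hmgcs1, the enzyme that makes HMG-CoA for the sterol pathway, read 7646 and 9463 in O(WT)SK and 7665 and 10109 in O(5R)SK, higher by 0.31 and 0.40. Insig1, a sterol sensor protein, was higher by 0.36 in each combination. No member reached 1.5-fold in both combinations. A further promoter search, also chosen after the values were seen, looked for the sterol response letters TCACNCCAC. They were in 1 of 25 promoters of these genes (4%), that of Hmgcs1, and in 1.24% of 32851 promoters.

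Of 17 antioxidant genes 10 were higher and 3 lower in both combinations, and the trended prior called 5 higher. Mt1, a metallothionein, read 4840 and 9448 in O(WT)SK and 5274 and 9086 in O(5R)SK, higher by 0.96 and 0.78, and its neighbour Mt2 by 0.44 and 1.10. Of the 18 acute phase and iron genes on the array only 8 could be tested, of which 5 were higher and 1 lower, all 5 called by the trended prior. Lbp was dim on day 3, at 20.2 in O(WT)SK and 29.7 in O(5R)SK, and passed the brightness filter through later values. These include its day 5 values of 47.1 and 80.3, which are part of the difference itself. Without the filter 8 of 18 were higher and 3 lower, with the median of the list at 0.26 in place of 0.71. The 5 were Scara5, a ferritin receptor, Lbp, which binds bacterial lipopolysaccharide, Cp, the copper oxidase ceruloplasmin, the complement protease C1ra and its inhibitor Serping1. Cp read 89.7 and 169, and 89.9 and 200, higher by 0.81 and 1.03. Among glycolytic and hypoxia genes, 14 of 28 were lower and 9 higher, with the glucose transporters opposed: Slc2a1 was lower by 0.44 and 0.33 and Slc2a3 higher by 0.62 and 0.56. Adm, the vasodilator peptide adrenomedullin, read 2020 and 1171, and 1793 and 859, lower by 0.78 and 1.05. Respiratory chain genes stayed within -0.12 and 0.12 in the mean of the combinations. Ddit3, a stress factor, was higher by 0.95 and 0.69 within an ER stress list that was divided, with 7 of 25 higher and 9 lower.

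Growth factor and chromatin genes completed the comparison. Igf2, the fetal growth factor, read 3525 and 1811 in O(WT)SK and 3207 and 1924 in O(5R)SK, lower by 0.95 and 0.73, and Igfbp4, a binding protein of it, read 593 and 1045, and 610 and 924, higher by 0.80 and 0.59. For both, the days did not overlap (limma adjusted p = 0.0864 and 0.107). Of 33 chromatin modifiers 17 were lower and 7 higher. Dnmt1, the maintenance methyltransferase that is also expressed with DNA replication, read 1439 and 1076, and 1476 and 1033, lower by 0.41 and 0.51. In the LIF pathway, whose ligand was in the medium, 10 of 19 were higher and 5 lower, with medians of 0.06 in each combination. Of 11 adipocyte genes 5 were lower and 4 higher, and of 8 endothelial markers 1 was lower and 2 higher.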

How the data were processed

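Expression was measured on 6 Affymetrix arrays, whose labels gave the groups and days. The authors deposited linear intensities per probe set. The submitters' processing notes name affy, without a version, and the sources used here do not give the probe summary or background correction. The number of arrays limits the precision. The values show a 2% trimmed mean of 500 on each array.

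Of 45101 probe sets, 34958 name 1 gene, 932 several and 9211 none in the platform annotation, and 64 are controls. The probe set with the highest mean was used for the 9010 genes with several. Values were taken as log2(intensity + 16) and genes were kept above the 40th percentile of probe set means (log2 5.63).

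Under R 4.3.3 with version 1.17.8 of data.table, the tests were those of limma 3.58.1, with lmFit followed by eBayes. The fit over the 6 arrays had day and combination as terms, and p-values were adjusted by Benjamini-Hochberg over 12622 genes at 0.05. It was tested on simulated data. Figures used Python 3.11.15, pandas 2.3.3 and matplotlib 3.10.9. Promoters matched the RefSeq table by symbol, and motifs were searched on both strands.

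Named genes are the 20 largest differences in each direction by the smaller of both combinations' values, without predicted genes, the 4 leading members of each list by the same measure, and Pou5f1, Sox2, Klf4 and Myc. Further members of the lists, genes read for the fibroblast label, Serpinb6b, Msln, Upk1b and Siglecg were named after their values were seen. The comparison, the 37 lists and the alternatives were chosen with earlier results of these data known.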

Additional observations from a re-analysis of the deposited data

Results flagged for a closer look

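The 8 genes that passed 2-fold in opposite directions were singled out because the arrays of one combination went one way and those of the other the opposite way. The difference between the combinations was not tested, with 1 array per combination and day. As day 5 minus day 3 in O(5R)SK minus the same in O(WT)SK, on the log2(intensity + 16) scale, it was 3.68 for Pidd1, 3.02 for Aars2, 2.75 for Myoz3, 2.67 for AI854703, 2.60 for Grik5, 2.49 for Nr1h3, 2.35 for Abcb8 and -4.37 for Golga7b. Golga7b read 14.1 and 128 on days 3 and 5 of O(WT)SK and 105 and 11.9 in O(5R)SK. Pidd1 read 107 and 41.7, and 8.11 and 129. The lowest of a gene's 4 intensities lay between 8.11 and 94.2.

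The medians of 10 of the 37 gene lists had opposite signs in the 2 combinations, also not tested, and in 2 of these both medians were at least 0.1 from 0. For the 10 epithelial regulators the O(5R)SK median lay above the O(WT)SK median by 0.42, and for the 8 skeletal muscle markers by 0.37.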

How the results depend on the processing

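The number of genes called by limma was 0 in the main analysis and 225 with a pseudocount of 64, 418 with the filter at the 60th percentile and 645 with the trended robust prior, of which 358 were shared with the 418. It was 0 with a pseudocount of 4, no filter, the mean of probe sets, quantile normalization, a common median, the 4 arrays of days 3 and 5 only, no block for combination, and when any array was left out (0 to 0). The smallest adjusted p with the 4 arrays was 0.184. The cause of these changes was not tested. Genes at least 2-fold in both combinations numbered 76, against 32 with a pseudocount of 64, 146 without a filter, 47 with the filter at the 60th percentile and 409 at 1.5-fold; with a common median 39 were higher and 39 lower, against 45 and 31.

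The medians of 17 of the 37 lists took values on both sides of 0 over the alternatives and the arrays left out in turn, among them epithelial regulators (-0.33 to 0.22), skeletal muscle (-0.19 to 0.19) and interferon genes (-0.17 to 0.04). Others were pluripotency genes at the 60th percentile filter (-0.02) and without the O(WT)SK day 3 array (-0.04; -0.04 to 0.29 over the arrays left out in turn), neural genes without the O(WT)SK day 5 array (-0.03; -0.03 to 0.20), and adipocyte genes by the mean over probe sets (0.06) and when the O(5R)SK day 3 array was left out (0.04; -0.31 to 0.04). Sign changes of single genes were those of Spint1 without the O(WT)SK day 5 array (-0.01; -0.01 to 1.10), and, with the mean of probe sets, Pola2 (0.02), Rps18 (0.03), Rps20 (0.04), Hoxd8 (0.31) and Klf4 (0.02). Klf4 also did so with quantile normalization (0.02) and without the O(WT)SK day 3 (0.04) or day 5 array (0.05), in a range from -0.06 to 0.05, and Pou5f1 with quantile normalization (0.02) and without the O(5R)SK day 3 array (0.00). The macrophage, replication, mitosis, contractile and immediate early medians stayed below 0 under each alternative, between -0.81 and -0.18. No paired analysis by replicate number was possible because each combination and day has 1 array, and the pairing by combination is in the main fit.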
